A study of Mus musculus with 12 samples.

Results

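Alternative last exons were examined in OT-I CD8+ T cells, and they are the 448 nodes that the deposited Whippet table classes as type AL and gives a Psi for in both antigen-treated groups. Whippet cuts each gene into nodes, and Psi is the fraction of transcripts, from 0 to 1, that include a node. The 448 nodes lie in 411 genes and were taken out of 115403 nodes of all types. OT-I CD8+ T cells carry a transgenic T cell receptor for the ovalbumin peptide SIINFEKL, and they were transferred into C57BL/6J mice. Recipients were given the peptide with control rat IgG (Ag, 5 libraries) or the peptide with agonist antibodies against CD134 (OX40) and CD137 (4-1BB) (Ag+Costim, 5 libraries), and OT-I cells of non-transferred mice served as the Naive group (2 libraries). CD8+ T cells were sorted from spleen and lymph nodes and sequenced from poly(A) RNA as single reads of 100 bases. Ag and Ag+Costim cells were taken after 4 days by the labels and 3.5 days by the study's methods. The labels give no day for Naive. The cells of all 3 groups carry the OT-I receptor, while the transferred cells, but not the Naive ones, had been in a host. The gene counts summed to between 23976932 (Ag replicate 4) and 49258758 (Ag+Costim replicate 3) per library.

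A gene with an alternative last exon can end its messenger RNA at more than 1 place. Cleavage and polyadenylation at an upstream exon gives a shorter transcript that lacks the later exons, while splicing past that exon carries transcription on to a downstream end. The choice is known to depend on the strength of the poly(A) signal, on the cleavage and polyadenylation machinery and on U1 snRNP, which holds back early cleavage, and because the last coding exon is exchanged, the protein's C-terminus and the 3′ UTR are exchanged with it.

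In the GENCODE vM21 annotation of mm10, 446 of the 448 nodes were matched to an annotated last exon and 2 (Map7 node 19 and Vps8 node 48) were not. Of the matched nodes, 126 are the most upstream last exon of their gene, 317 lie between other last exons and 3 are the most downstream. A lower Psi at 443 nodes thus means less use of an end with another end downstream of it. The node's 3′ end is that of an annotated transcript for 425 nodes, and 399 nodes hold the end of a coding sequence. The nodes had a median length of 438 bases, and the most used last exon downstream began a median of 11160 bases further on.

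The poly(A) hexamer lies just before a transcript's end, and the genome sequence there bears on whether such an end is used. Windows of 30 bases, 5′ to 3′ on the transcript strand with the hexamer in capitals, are shown for 5 of the nodes described in most detail, in which Ag and Ag+Costim libraries did not overlap and the edgeR call held without any 1 library, first for the upstream end and then for the most used downstream end of the same gene (sequence from the GENCODE vM21 transcripts, build mm10).
Nsg2 upstream, chr11:32033375-32033404, plus strand: aaAATAAAaaggcgtattgcaaaatgctgt
Nsg2 downstream, chr11:32059169-32059198, plus strand: acaggaaaaaaaAATAAAcatagatgtgtc
Zbp1 upstream, chr2:173213735-173213764, minus strand: aataaatgaacaATTAAAgaatgcatctct
Ttc17 upstream, chr2:94327938-94327967, minus strand: taataggtgctcAATAAAtatttctcaagt
Ttc17 downstream, chr2:94300775-94300804, minus strand: cctgagaacaaaAATAAAaattgtttatga
Gna13 upstream, chr11:109380441-109380470, plus strand: tgcactcacctgAATAAAtgtcattttaaa
Gna13 downstream, chr11:109401339-109401368, plus strand: ttactgacatttAATAAAcatttataaatg
Tmpo upstream, chr10:91160420-91160449, minus strand: ttctacaaattcAATAAAgttgttaaattt
Tmpo downstream, chr10:91147573-91147602, minus strand: atataattcaatAATAAAgtaattaacctc

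The upstream window of Zbp1 also opens with AATAAA, printed in lower case since ATTAAA lies nearer to the end. The downstream end of Zbp1 holds neither hexamer in its last 40 bases, which says only that these letters are not in this window. Both hexamers, AATAAA and ATTAAA, were searched on the transcript strand in the last 40 bases of every annotated end. Of the 425 nodes with an annotated end, 7 have a last exon shorter than this window and were not searched. AATAAA was present at 234 of the other 418 ends (56.0%), and ATTAAA without AATAAA at a further 62 (14.8%). Among all 41352 annotated ends of protein-coding transcripts the shares were 47.1% and 11.3%, and among the most used downstream ends of the same genes they were 60.9% and 13.3% of 412. Of the ends whose Psi was lower in Ag+Costim by 0.1 or more, 29 of 41 held AATAAA (70.7%), and of those with a higher Psi, 12 of 20 did (60.0%). A match is a description of the sequence and was not tested as a site.

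The alternative last exons spanned the whole range of use, with low values the most common. Psi was under 0.1 at 183 nodes in Ag and at 203 in Ag+Costim, and over 0.9 at 69 and 66. The median Psi was 0.128 in Ag and 0.115 in Ag+Costim. The Whippet table holds 1 Psi per group and so no error between libraries, and the Psi differences are given as values with no test.

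Among the nodes with a Psi difference of 0.1 or more, more were lower than higher in Ag+Costim. Among the 417 nodes in genes with a mean of at least 5 CPM (counts scaled to a common library total with TMM factors, averaged over all 12 libraries), Psi was lower by 0.1 or more in Ag+Costim at 42 (10.1%) and higher by that much at 23 (5.52%), and the other 352 (84.4%) lay within 0.1. Among all 102847 nodes of every type in such genes, 2.94% were lower and 3.59% higher by 0.1. Of these, 80834 were core exons, with 0.453% lower and 1.43% higher. Retained introns (7.36% lower and 5.05% higher) and alternative donors (8.98% and 6.07%) were also more often lower. Alternative acceptors were near even (5.78% and 5.71%). Alternative first exons were lower at 6.7% and higher at 4.56% of 1074 nodes, while tandem ends were lower at 14.2% and higher at 14.2% of 9437 nodes. The remaining 31 nodes lie in genes under 5 CPM, and 10 of them differed by 0.1 or more. Of the 417 nodes, 19 are in genes under 5 CPM in Ag or in Ag+Costim, Kantr and Grk4 among them, and the other 398 held 38 lower and 21 higher nodes (a split made after seeing the data). The nodes with a Psi lower by 0.1 had a median Psi of 0.416 in Ag and 0.199 in Ag+Costim, those with a higher Psi had 0.314 and 0.471, and those within 0.1 had 0.0995 and 0.0899. The lower nodes had a median length of 350 bases and the higher ones 1575 bases.

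**Figure D1:**
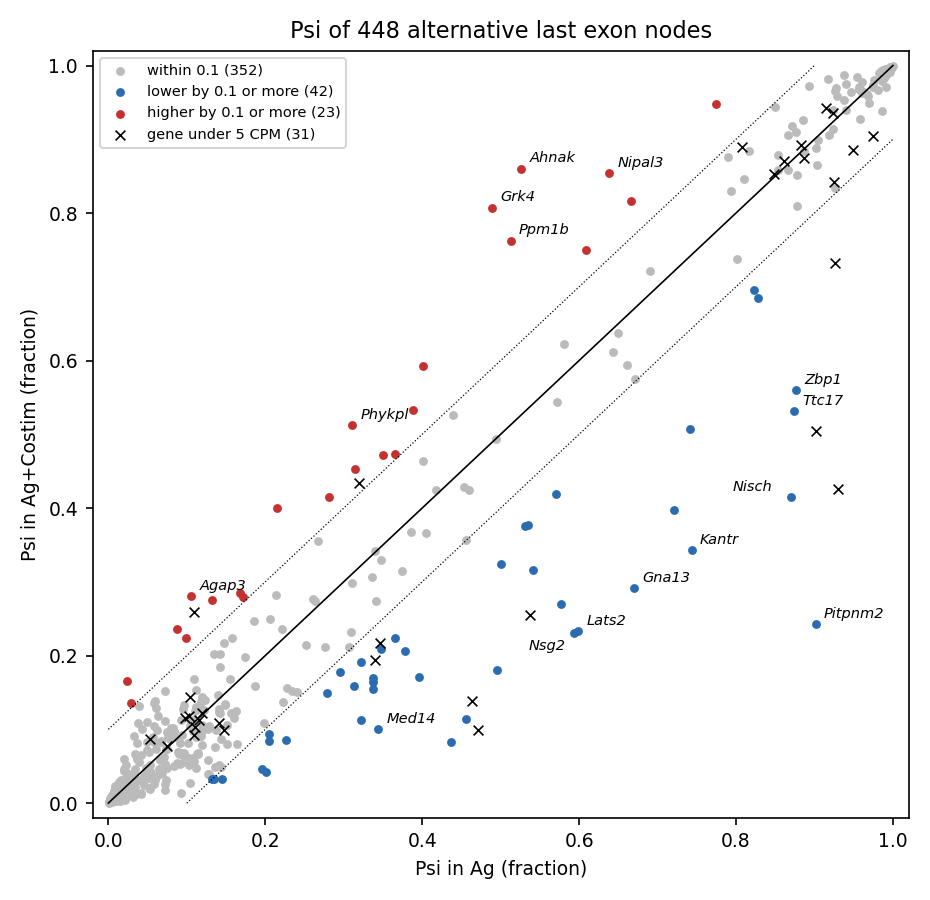
Psi of each alternative last exon node in Ag (horizontal axis, fraction) against Ag+Costim (vertical axis, fraction), with 1 point per node, the line of equality and dotted lines at a difference of 0.1. Crosses mark the 31 nodes in genes under 5 CPM. Of all 448 nodes, 50 lie beyond the lower dotted line and 25 beyond the upper one, of which 42 and 23 are in genes of at least 5 CPM.

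To set the Psi values beside an error between libraries, the deposited StringTie transcript counts were summed per last exon. The sum covers all transcripts that end there and gives a share of the gene's counts per library. Longer transcripts collect more counts, so the share is not a share of molecules. Its level also differs from Psi, and the reason for this was not tested. Across 446 nodes, Psi in Ag and the mean share in the Ag libraries ranked the nodes alike in part (Spearman rank correlation 0.78, a description over nodes measured in the same libraries). The usage difference is the log2 change of a last exon relative to its gene as a whole, that exon included. An end that already holds most of its gene's counts can thus rise only a little on this scale. The usage difference was tested with edgeR over 21335 last exons of all genes. Of these, 5.99% were called in Ag+Costim against Ag at an adjusted p below 0.05, 4.36% lower and 1.63% higher. The filter on low counts passed 369 of the 448 nodes. Of the 369, 24 were called (6.5%), 14 lower (3.79%) and 10 higher (2.71%), a share near that of all last exons. The second test was a limma fit of the log2 ratio of a last exon to the rest of its gene. It was chosen after the data had been seen. This test called 50 of the 369 nodes (13.6%), against 16.1% of all last exons. It had 29 lower and 21 higher, against 8.98% and 7.11% of all last exons.

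At 34 of the 41 tested nodes with a Psi lower by 0.1 the transcript counts moved the same way, and at 18 of the 23 with a higher Psi. The median log2 usage difference was -0.78 for the former and 0.28 for the latter, against 0.00 over all 369 nodes. Over all 369 tested nodes, the Psi difference and the log2 usage difference had a Spearman rank correlation of 0.37, a description across nodes. Psi and transcript counts come from the same libraries, so this is no independent repeat. Of the 41 nodes with a lower Psi, 8 were called lower and in 10 the 5 Ag+Costim libraries all lay below the 5 Ag libraries. Of the 23 with a higher Psi, 1 was called higher and 5 were separated upward. A separation of all libraries was found at 8.13% (lower) and 6.5% (higher) of the 369 nodes, and at 8.19% and 6.74% of all last exons tested.

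**Figure D2:**
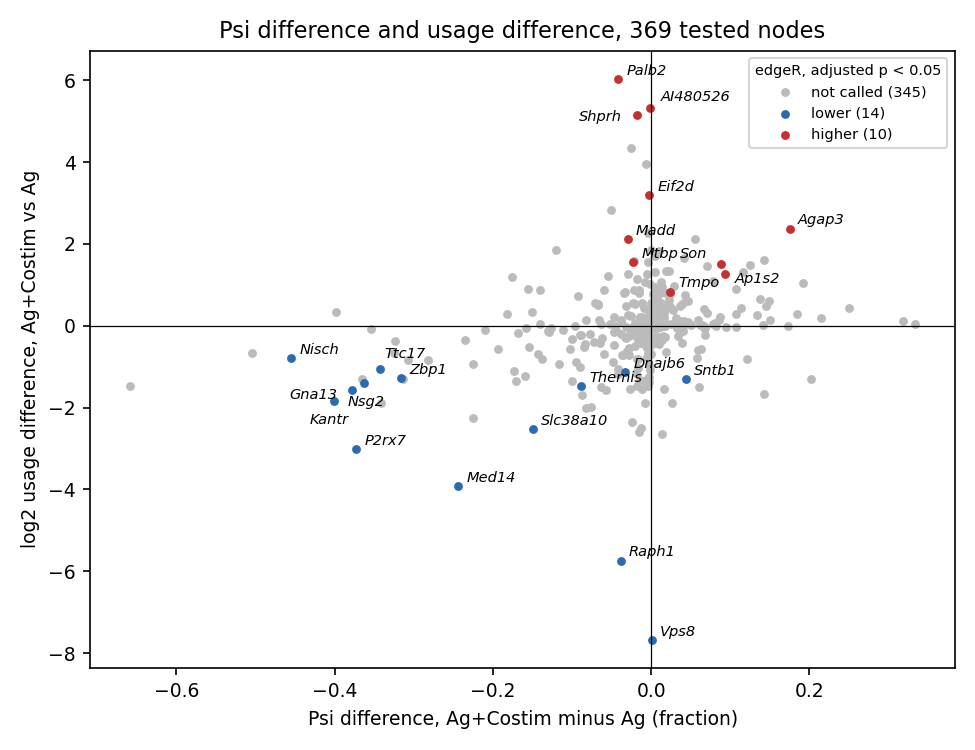
Psi difference (horizontal axis, fraction, Ag+Costim minus Ag) against the log2 usage difference from the transcript counts (vertical axis) for the 369 tested nodes, with the 24 nodes called by edgeR in colour and named. Points at the lower left (Nisch, Kantr, Gna13, Nsg2, Ttc17, Zbp1, Med14) were lower in Ag+Costim by both measures, while the called nodes at the top (Palb2, AI480526, Shprh) and bottom (Raph1, Vps8) had a Psi difference near 0.

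The upstream ends of Nsg2, Zbp1, Gna13 and Ttc17 lost share in Ag+Costim with no overlap between the 10 libraries. Nsg2 encodes a small endosomal protein of neurons, and its node 6 (chromosome 11, 32031770 to 32033414, plus strand) is 1645 bases long. Its Psi was 0.594 in Ag and 0.231 in Ag+Costim. Its share of the gene's counts was 43.2%, 39.4%, 44.4%, 35.1% and 37.7% in Ag replicates 1 to 5, and 16.0%, 15.7%, 11.5%, 15.4% and 17.4% in Ag+Costim. Every Ag+Costim library thus lay under every Ag library, and the Naive libraries (16.3% and 17.7%) lay close to Ag+Costim. The usage fell by 1.39 on the log2 scale (SE 0.25, edgeR adjusted p = 0.000994), while the gene as a whole did not pass the test (log2 fold change 0.08, adjusted p = 0.715).

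Zbp1 encodes a sensor of Z-form nucleic acids that can start necroptosis. Its upstream node 5 (chromosome 2, 173213735 to 173213909, minus strand) had a Psi of 0.876 in Ag and 0.560 in Ag+Costim. It held 66.3%, 50.5%, 51.8%, 62.6% and 52.5% of the counts in the Ag libraries and 23.9%, 20.1%, 21.5%, 24.1% and 26.4% in the Ag+Costim libraries. The Naive libraries gave 22.2% and 21.6%. The larger part of the counts of Zbp1 was thus on the upstream end in every Ag library and on the downstream end in every Ag+Costim and Naive library. Usage fell by 1.28 (SE 0.29, adjusted p = 0.00669), with 86.3 CPM in Ag and 99.1 CPM in Ag+Costim for the gene (adjusted p = 0.471).

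Gna13, which encodes the Gα13 subunit of a G protein that relays signals from cell surface receptors, has 2 annotated last exons. The upstream one, node 3 (chromosome 11, 109380215 to 109380475, plus strand), had a Psi of 0.670 in Ag and 0.292 in Ag+Costim. Its share of counts was 17.8%, 17.0%, 20.6%, 10.7% and 22.8% in Ag, against 6.17%, 3.24%, 6.44%, 7.41% and 7.30% in Ag+Costim and 7.74% and 5.72% in Naive. Ag replicate 4, the shallowest library, was the lowest of its group and still above all of Ag+Costim. Usage fell by 1.58 (SE 0.24, adjusted p = 0.00123), and the gene itself rose from 50.8 to 76.7 CPM (log2 fold change 0.59, adjusted p = 1.67e-05).

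Ttc17, a tetratricopeptide repeat protein linked to actin and cilia, used its upstream node 23 (chromosome 2, 94327937 to 94328485, minus strand) for most of its counts in Ag. The shares were 85.8%, 77.8%, 89.3%, 87.1% and 95.0% in Ag and 47.6%, 27.5%, 47.7%, 36.5% and 54.0% in Ag+Costim. Here the Naive libraries (78.4% and 73.7%) lay nearer to Ag than to Ag+Costim. Psi was 0.874 in Ag and 0.532 in Ag+Costim. Usage fell by 1.05 (SE 0.24, adjusted p = 0.0058), and the share of the downstream last exon went from 12.5% ± 6.38 (SD, n = 5) in Ag to 56.6% ± 10.6 (SD, n = 5) in Ag+Costim. The calls for Nsg2, Zbp1, Gna13 and Ttc17 held without any 1 library and under every other setting tried.

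**Figure D3:**
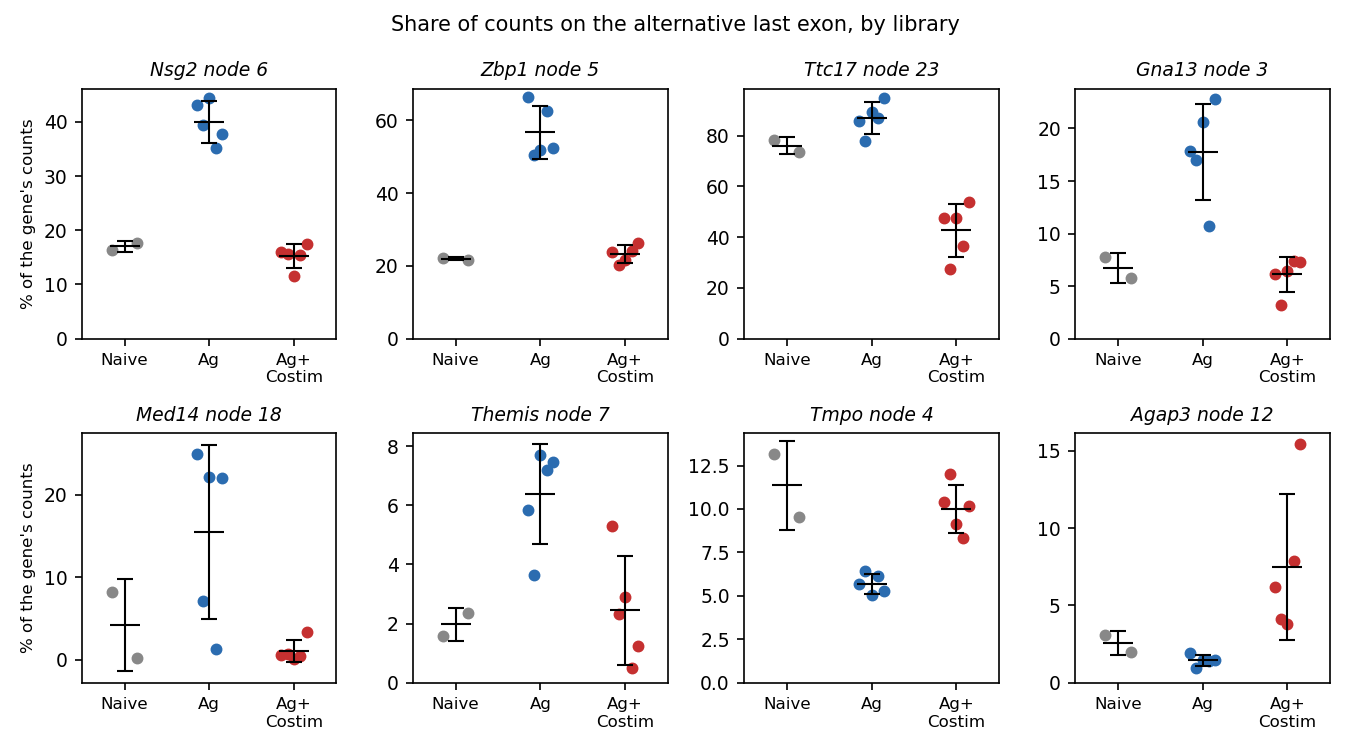
Share of the gene's counts on the alternative last exon (vertical axes, %, different scales) in each library of Naive (n = 2), Ag (n = 5) and Ag+Costim (n = 5), with the mean and SD as bars. Nsg2, Zbp1, Ttc17 and Gna13 show no overlap between Ag and Ag+Costim, with Ag higher. Tmpo and Agap3 show the same with Ag+Costim higher, and Med14 and Themis overlap.

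Further upstream ends were called lower with overlapping libraries. Med14, a scaffold subunit of the Mediator complex, held 24.9%, 7.08%, 22.2%, 1.33% and 22.1% of its counts on node 18 (chromosome X, 12709129 to 12709240, minus strand) in Ag and 0.583%, 0.717%, 0.0898%, 0.449% and 3.36% in Ag+Costim, and the Psi was 0.344 and 0.0999. The highest Ag+Costim library lay above the lowest Ag library, which was replicate 4. Usage fell by 3.91 (SE 0.84, edgeR adjusted p = 0.00264), and the log2 difference ran from -4.92 to -3.64 without 1 library.

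Slc38a10, of a family of amino acid transporters, held 4.35%, 1.91%, 7.05%, 3.12% and 5.85% on node 13 in Ag and 0.526%, 0.223%, 0.286%, 2.38% and 0.432% in Ag+Costim. Ag+Costim replicate 4 alone reached into the range of Ag. Its Psi was 0.195 and 0.0459, and usage fell by 2.52 (SE 0.64, edgeR adjusted p = 0.00636). The log2 difference ran from -3.57 to -2.28 without 1 library. This call was lost with protein-coding transcripts alone (adjusted p = 0.0608). Themis, needed for T cell receptor signalling in thymocytes, held 5.85%, 3.64%, 7.69%, 7.21% and 7.48% on node 7 in Ag and 5.31%, 2.31%, 2.90%, 0.493% and 1.24% in Ag+Costim. Usage fell by 1.48 (SE 0.36, adjusted p = 0.00484), though the limma ratio test did not call it (adjusted p = 0.0565).

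The calls of Nisch, Kantr and Raph1 were the least steady. Nisch, which encodes the integrin-binding protein nischarin, had a Psi of 0.870 in Ag and 0.415 in Ag+Costim at node 20. The shares were 11.1%, 19.2%, 16.4%, 13.0% and 25.2% in Ag and 13.1%, 6.60%, 8.18%, 11.5% and 10.2% in Ag+Costim, so the groups overlapped. Usage fell by 0.78 (SE 0.24, adjusted p = 0.0358). The limma ratio test did not call it (adjusted p = 0.107), and the call was lost without Ag replicate 2, 3 or 5, without Ag+Costim replicate 2, 3 or 5 and without either Naive library, with adjusted p from 0.0528 to 0.235. It was also lost with no filter on low counts (0.0606), with last exons merged by acceptor (0.0967) and with protein-coding transcripts alone (0.178). Kantr, a long noncoding RNA, had a Psi of 0.744 and 0.343 at node 8. It held 16.6%, 24.2%, 18.1%, 31.2% and 16.0% in Ag and 0%, 4.67%, 6.01%, 14.5% and 3.45% in Ag+Costim, with no overlap. These rest on 41 to 75 counts per Ag library and 0 to 22 per Ag+Costim library. Usage fell by 1.85 (SE 0.48, adjusted p = 0.0409), and the call was lost without Ag replicate 2 or 4, without Ag+Costim replicate 1, 2, 3 or 5 and without either Naive library (adjusted p from 0.0552 to 0.132), as well as with no filter on low counts and with last exons merged by acceptor (adjusted p up to 0.0696). Raph1, which encodes the actin regulator lamellipodin, was called lower (adjusted p = 0.0474) from 28 counts in Ag replicate 2, with 0 in the other 4 Ag libraries and in all 5 of Ag+Costim (12 counts in Naive replicate 2). Without that library its node 18 did not pass the filter, and no fold is given.

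Named upstream ends that rose in usage were Tmpo, Agap3, Ap1s2 and Son, and with protein-coding transcripts alone all 4 calls were lost (adjusted p = 0.0816, 0.445, 0.249 and 0.0614 in that order). Tmpo encodes the lamina-associated polypeptides 2, proteins of the nuclear lamina and nucleoplasm that differ in their C-termini. Node 4 (chromosome 10, 91160417 to 91163361, minus strand) held 5.66%, 6.43%, 5.03%, 6.13% and 5.26% of the counts in Ag and 10.4%, 12%, 9.12%, 8.33% and 10.2% in Ag+Costim. Ag+Costim was above Ag without overlap, and the Naive libraries (13.2% and 9.55%) did too. The Psi was small in both groups, 0.0416 and 0.0654. Usage rose by 0.84 (SE 0.19, adjusted p = 0.00382), while the gene rose from 246 to 632 CPM.

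Agap3, an Arf GTPase-activating protein, went from 1.91%, 0.948%, 1.47%, 1.43% and 1.48% on node 12 in Ag to 6.17%, 4.10%, 3.81%, 7.88% and 15.4% in Ag+Costim, with a Psi of 0.106 and 0.281. The groups did not overlap, but the Ag values rest on 5 to 13 counts per library. Usage rose by 2.37 (SE 0.53, adjusted p = 0.0181), and the call was lost without Ag replicate 2 (adjusted p = 0.0522) or Ag+Costim replicate 5 (adjusted p = 0.149). Ap1s2, a subunit of the clathrin adaptor AP-1, held 10.5%, 6.60%, 5.37%, 8.43% and 9.12% on node 7 in Ag and 21.2%, 22%, 20.2%, 13.1% and 19.0% in Ag+Costim, again with no overlap. Usage rose by 1.26 (SE 0.25, adjusted p = 0.0369). That call was lost without Ag replicate 2 or 3 and without Ag+Costim replicate 1, 2, 3 or 5 (adjusted p from 0.0633 to 0.115), with no filter on low counts (0.0571) and with last exons merged by acceptor (0.0869). Son, a splicing cofactor of nuclear speckles, held 5.36%, 15.7%, 14.1%, 9.24% and 4.01% on node 8 in Ag and 33.1%, 44.1%, 32.5%, 14.6% and 11.4% in Ag+Costim. The 2 lowest Ag+Costim libraries lay within the Ag range, usage rose by 1.5 (SE 0.38, adjusted p = 0.00951), and the call was lost without Ag+Costim replicate 2 (adjusted p = 0.0695) and by the limma ratio test (adjusted p = 0.0566). The gene fell from 550.3 to 214 CPM. Another node of Son in this set, node 11, held 450 to 2857 counts in Ag and 713 to 2037 in Ag+Costim. Node 8 held 828 to 3304 and 912 to 4332. Node 11 held more than node 8 in Ag replicates 1, 4 and 5 and in Ag+Costim replicate 5. A shift of counts between these nodes was not tested.

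Large Psi differences were not always seen in the transcript counts. The largest downward Psi difference in genes of at least 5 CPM was at node 15 of Pitpnm2, a phosphatidylinositol transfer protein, with 0.902 in Ag and 0.243 in Ag+Costim. Its share was 11.9%, 10.8%, 3.74%, 0% and 15.5% in Ag and 2.47%, 5.60%, 8.14%, 2% and 0% in Ag+Costim, and the groups overlapped (log2 usage -1.46, SE 0.69, adjusted p = 0.307). The upstream end of Lats2, a kinase of the Hippo pathway, had a Psi of 0.599 and 0.233 at node 6. Its share was 7.52%, 7.70%, 7.19%, 7.39% and 6.57% in Ag and 2.74%, 3.62%, 3.31%, 3.49% and 0.809% in Ag+Costim. The libraries did not overlap, yet the edgeR test did not call it (log2 usage -1.31, SE 0.51, adjusted p = 0.154), whereas the limma ratio test did (adjusted p = 0.0202).

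The 5 largest upward Psi differences were at Ahnak node 5, Grk4 node 6, Ppm1b node 9, Nipal3 node 13 and Phykpl node 14, and edgeR called none of them with all libraries and no block. Ahnak, a very large scaffold protein, had a Psi of 0.526 in Ag and 0.860 in Ag+Costim at a single exon of 17497 bases, while its share was 89.9%, 92.4%, 84.1%, 93.1% and 87.8% in Ag and 92.9%, 94.5%, 92.8%, 95.3% and 91.1% in Ag+Costim, which overlapped (log2 usage 0.05, SE 0.19, adjusted p = 1). For Ppm1b, a protein phosphatase of the PP2C family with a Psi of 0.513 and 0.763, the share was 18.3%, 14.9%, 16.1%, 19.0% and 17.4% in Ag and 24%, 24.7%, 22.1%, 22.5% and 21.1% in Ag+Costim, which did not overlap (log2 usage 0.43, SE 0.31, adjusted p = 0.661). Nipal3, of a family of magnesium transporters, had a Psi of 0.639 and 0.854 and overlapping shares of 83.4% ± 7.28 (SD, n = 5) and 93.5% ± 3.70 (SD, n = 5). At shares as high as those of Ahnak and Nipal3, the log2 usage has little room to rise. Phykpl, an enzyme of hydroxylysine breakdown, went the other way in the counts (log2 usage -1.30, adjusted p = 0.233), since 4 of 5 Ag+Costim libraries held between 0.855% and 2.81% and replicate 5 held 37.5%. Without that replicate Phykpl was called lower (log2 usage -3.58, adjusted p = 1.5e-05), as it was with all libraries under limma voom (adjusted p = 0.00382) and under the replicate block (adjusted p = 0.0441).

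Grk4, a G protein-coupled receptor kinase, set the Naive cells apart. Its node 6 (chromosome 5, 34698863 to 34701082, plus strand) held 53.7%, 58.7%, 60.5%, 73.8% and 44.7% of the counts in Ag and 72.4%, 63.1%, 74.3%, 43.4% and 65.0% in Ag+Costim, but 4.07% and 3.34% in Naive. Usage rose by 3.96 from Naive to Ag (SE 0.46, adjusted p = 4.86e-05), while Ag+Costim and Ag overlapped (log2 usage 0.12, SE 0.27, adjusted p = 1). The Psi of 0.489 in Ag and 0.807 in Ag+Costim has no counterpart for Naive in the Whippet table. The gene was at 8.32 CPM in Ag, 7.50 CPM in Naive and 3.56 CPM in Ag+Costim.

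From Naive to Ag, 13 of the 369 tested nodes were called (3.52%), 5 higher and 8 lower, against 3.3% of all 21335 last exons (0.572% higher and 2.73% lower). The limma ratio test gave 16 higher and 17 lower there, against 4.57% and 6.19% of all last exons. Besides Grk4, they were Themis node 7, Vps8 node 57, Stx6 node 9 and Stard3nl node 9 (higher) and Tmpo node 4, Palb2 node 16, Madd node 34, Cenpa node 4, Shprh node 31, Eif4e2 node 15, Coro7 node 10 and AI480526 node 10 (lower), most of them named after their values were seen. The call of Themis (log2 usage 1.70, SE 0.51, adjusted p = 0.0487) was lost without Ag replicate 1, 3 or 5, Ag+Costim replicate 2 or 3, or either Naive library (adjusted p from 0.0602 to 0.543), and in 5 other settings that include the replicate block (adjusted p = 0.111). This comparison rests on 2 Naive libraries, and 1 node was higher and 4 lower without Naive replicate 2. It shares the 5 Ag libraries with the comparison against Ag+Costim, so the values of both are given side by side only. Nsg2 had a log2 usage of 1.23 from Naive to Ag (SE 0.35, adjusted p = 0.0772) and of -1.39 from Ag to Ag+Costim. Gna13 had 1.41 (SE 0.34, adjusted p = 0.12) and -1.58, Zbp1 had 1.35 (SE 0.40, adjusted p = 0.0712) and -1.28, and Ttc17 had 0.19 (SE 0.32, adjusted p = 1) and -1.05. Tmpo had -0.97 (SE 0.25, adjusted p = 0.0147) and 0.84. Its call from Naive to Ag was lost without either Naive library (0.0572 and 0.502) and in 6 of 9 other settings, the replicate block included (adjusted p up to 0.247). Other settings called some of the rest from Naive to Ag. Nsg2 was called in 4 of 9, Zbp1 in 3, Gna13 in 2 and Ttc17 in 1, with lowest adjusted p of 0.000496, 0.00253, 0.00166 and 0.0201, and limma voom was among them for each.

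Of 92 genes listed for T cell signalling, 8 held an alternative last exon node, with 9 nodes in all. Psi was lower in Ag+Costim at 8 of the 9, where it was lower, by any amount, at 248 of all 448 nodes. The 8 include Il2ra, whose gene was under 5 CPM in Ag, and Foxo3, whose gene was under 5 CPM in Ag+Costim. Gna13 and Themis node 7 were the ones called. Genes such as Cd247, Skap1 and Prkcb hold nodes of this set but are not listed, so these counts depend on the list. For Il2ra, the high-affinity interleukin 2 receptor chain, Psi at node 3 was 0.127 and 0.0389, but the gene was at 2.38 CPM in Ag against 69.9 CPM in Ag+Costim, and the share in Ag ran from 0% to 20.3% on 0 to 13 counts and overlapped that in Ag+Costim (log2 usage -1.69, SE 1.23, adjusted p = 0.682). Fas, the death receptor, had 0.0744 and 0.097 (adjusted p = 0.904). Plcg1 had a Psi of 0.974 in both groups and a share of at least 97.3% in every library. Arhgap15 had a Psi of 0.995 and 0.992, and a share of 74.9% to 86.9% in Ag and 79.8% to 85.7% in Ag+Costim. Foxo3, a transcription factor of quiescence that is below the 5 CPM minimum at 4.81 CPM, had a Psi of 0.930 and 0.426 at 6.08 CPM in Ag and 1.57 CPM in Ag+Costim, with overlapping shares (log2 usage -0.68, SE 0.80, adjusted p = 0.99).

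The next nodes were picked after their values were seen. Bcl2l11, which encodes the pro-apoptotic protein BIM, held 5.39%, 2.31%, 4.91%, 6.31% and 5.54% on node 8 in Ag and 10.6%, 8.41%, 13.6%, 16.3% and 11.0% in Ag+Costim, with 11.2% and 13.2% in Naive. The libraries of Ag and Ag+Costim did not overlap, and Psi was 0.168 and 0.284, but edgeR did not call it (log2 usage 1.31, SE 0.32, adjusted p = 0.092) whereas the limma ratio test did (adjusted p = 0.0139). P2rx7, the ATP-gated channel of T cells, is at 4.33 CPM and had 15 to 40 counts on node 6 per Ag library and 0 to 7 per Ag+Costim library. Its Psi was 0.471 and 0.0986, and usage fell by 3.01 (SE 0.88, adjusted p = 0.0436). Sntb1, a syntrophin that anchors proteins at the membrane, went against its Psi, which was 0.0370 in Ag and 0.0811 in Ag+Costim. Its share on node 4 was 26.9%, 21.1%, 26%, 27.7% and 19.4% in Ag and 9.51%, 6.61%, 8.90%, 10.4% and 13.0% in Ag+Costim, and usage fell by 1.30 (SE 0.25, adjusted p = 0.00705).

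Of the 10 nodes called higher, Psi moved the other way at 6 (Palb2, Madd, Mtbp, Shprh, Eif2d and AI480526), by less than 0.1 at each. Of the 14 called lower it did so at 2, Sntb1 and Vps8 node 57. Some of these calls rest on libraries at or near 0. Palb2 node 16 had 0 counts in all 5 Ag libraries and 1 to 42 in Ag+Costim, and Vps8 node 57 had 6 to 206 in Ag and 0 to 3 in Ag+Costim. StringTie assigns the reads of a gene among its transcripts, so a low transcript can be given no counts in 1 library and some in another.

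The factors that make the ends were examined at the gene level. Of 28 listed genes of cleavage and polyadenylation, 27 were tested, and 15 rose and 2 fell in Ag+Costim, with a median log2 fold change of 0.29. Of all 18817 genes tested, 26.6% rose and 26.5% fell, with a median of -0.05. Cpsf1 and Cpsf2, subunits of the factor that binds the poly(A) signal, rose from 53.9 ± 6.64 to 190 ± 27.1 CPM and from 43.7 ± 5.16 to 131 ± 12.6 CPM (SD, n = 5, log2 fold changes 1.82 and 1.58, edgeR adjusted p = 5.77e-08 and 5.15e-08). Scaf4, which represses early polyadenylation sites, rose by 1.43 (SE 0.16, adjusted p = 7.19e-06). The 2 that fell were Cdk13, a kinase of the RNA polymerase II tail (log2 fold change -0.92, adjusted p = 0.000212), and Ssu72, a phosphatase of that tail (-0.40, adjusted p = 0.00257).

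Of 25 listed genes of U1, U2AF and other splice site factors, all were tested, and 17 rose and 3 fell, with a median log2 fold change of 0.57. U2af2, which binds the polypyrimidine tract, rose by 2.25 (SE 0.16, adjusted p = 1.34e-07), and Hnrnpl by 2.12 (SE 0.08, adjusted p = 2.56e-09). Mbnl2, a muscleblind splicing regulator, fell by 0.54 (adjusted p = 0.00254), Luc7l3, a U1-associated protein, by 0.54 (adjusted p = 0.00673), and Prpf39, also of U1 snRNP, by 0.24 (adjusted p = 0.0151). Over the other settings tried, 13 to 17 of the first list and 17 of the second rose.

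**Figure D4:**
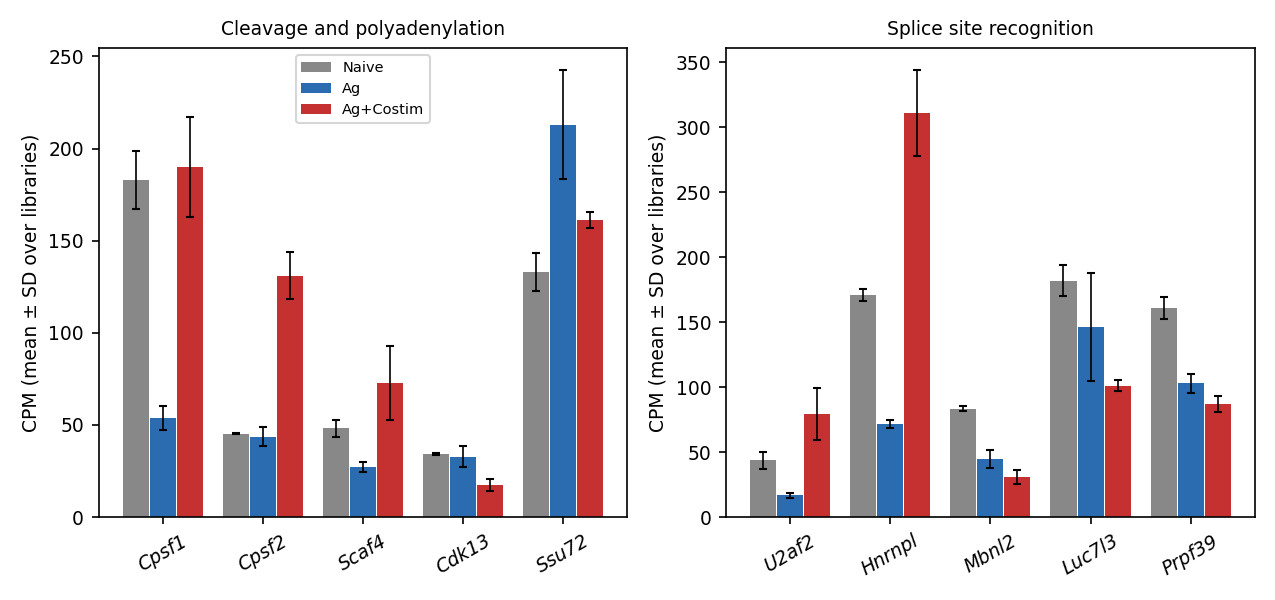
Level of the called genes named from both lists (CPM, mean and SD over 2 Naive, 5 Ag and 5 Ag+Costim libraries). Cpsf1, Cpsf2, Scaf4, U2af2 and Hnrnpl had their highest mean in Ag+Costim and their lowest in Ag, with Cpsf2 near equal in Ag and Naive (43.7 and 45.2 CPM).

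Wdr33, the subunit that reads the hexamer itself, was the sole listed factor with an alternative last exon node. Its node 8 had a Psi of 0.133 in Ag and 0.0324 in Ag+Costim. The share of counts was 1.58%, 1.06%, 1.85%, 2.30% and 1.17% in Ag and 0.867%, 0.405%, 0.406%, 0.922% and 0.530% in Ag+Costim, with 3.58% and 3.17% in Naive. The groups did not overlap, while edgeR did not call the node (log2 usage -1.34, SE 0.41, adjusted p = 0.0938) and the limma ratio test did (adjusted p = 0.0185).

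All 411 genes with an alternative last exon passed the gene-level filter. In Ag+Costim, 134 of them rose (32.6%) and 158 fell (38.4%), against 26.6% and 26.5% of all genes tested (53.1% in either direction), and their median log2 fold change was -0.08. Of the 40 genes with a Psi lower by 0.1, 16 rose and 12 fell, and of the 23 with a higher Psi, 2 rose and 12 fell.

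As a single value per library, the share of counts on last exons downstream of the alternative one was averaged over 379 genes. It was 70.05% and 69.88% in Naive, 70.28%, 70.71%, 70.58%, 70.35% and 71.17% in Ag, and 70.98%, 71.49%, 71.15%, 71.40% and 71.15% in Ag+Costim. The group means were 69.96%, 70.62% ± 0.355 (SD, n = 5) and 71.24% ± 0.209 (SD, n = 5), and 1 Ag library, replicate 5, lay within the Ag+Costim range. The difference of 0.617 percentage points between the antigen-treated groups was 0.144 with protein-coding transcripts alone, and no test was made since the genes were chosen with results known.

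The libraries carried the CD8+ T cell markers of their label, with Cd8b1 the highest in the mean over all libraries and Trac the highest in Naive, and Cd4 was at most 2.39 CPM. The summed CPM of 6 CD8+ T cell markers ran from 7510 to 10100 among Ag libraries and from 3820 to 5250 among Ag+Costim libraries, and was 10100 and 10800 in Naive. Markers of other cells moved with the groups. The 6 erythroid genes, led by Hba-a1, summed to 588 to 6730 CPM in Ag (median 1210) and 14 to 211 CPM in Ag+Costim (median 54.5), with 168 and 2310 in Naive, and Ag replicate 4 was the highest. The 6 B cell genes, led by Ighm, summed to 1170 to 1730 CPM in Ag and 556 to 1140 in Ag+Costim, with 1170 and 1190 in Naive and with Pax5 at most 0.606 CPM. The 6 myeloid genes, led by Lyz2, summed to 57.2 to 175 CPM in Ag and 82.9 to 146 CPM in Ag+Costim, with 56.2 and 27.1 in Naive, both under every Ag library. For the 2 NK genes, Klrb1c and Ncr1, the sums were 6.29 to 15.3 CPM in Ag, 1.16 to 3.17 in Ag+Costim and 15.1 and 13.2 in Naive, with Klrb1c the higher in every Ag library and Ncr1 in 3 of 5 Ag+Costim libraries. None of these markers was at 0 in every library. Their part in the shares of last exons was not tested. Without Ag replicate 4, 12 nodes were called lower and 10 higher in Ag+Costim. In bulk RNA, a change of transcript end within cells and a change in the mix of cells cannot be told apart. The kit does not mark strand, so reads of genes that overlap on opposite strands cannot be told apart either.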

How the data were processed

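RNA was measured in 12 libraries of 1 experiment, grouped by their labels. The authors aligned reads to mm10 with HISAT2 2.1.0 and quantified transcripts with StringTie 2.1.0 per the submitters' processing notes, and the deposited estimated counts, derived from coverage, are not normalized. The Psi fraction comes from the authors' Whippet run, which lists a single value for each group, and the same table holds their difference, probability and complexity or entropy columns, which were not used. The sequencing sheet they deposited lists a count of 24714617 to 46800347 reads per library and the percent aligned by the authors' core, 72.3% to 76.5%. In every library the estimated counts sum to more than the aligned reads, so they are not numbers of reads. The deposited FPKM table was not used.

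Of 81881 gene entries, 55536 were matched to GENCODE vM21, as were 141862 of 168207 transcripts, and the other gene entries hold 0.0508% to 0.121% of a library's counts. Overlapping terminal exons of a gene were merged, and transcript counts were summed per last exon. Relative usage was tested with edgeR 4.0.16 (quasi-likelihood fit on all 12 libraries, TMM, filterByExpr, diffSpliceDGE) in R 4.3.3, and gene levels with its robust quasi-likelihood test, all two-sided with Benjamini-Hochberg adjustment at 0.05 over all features tested. The alternatives used limma 3.58.1 (voom with diffSplice, and a log2 ratio with 0.5 added to the counts) and DESeq2 1.42.0. The SE of a log2 difference from edgeR was taken as its size over the square root of F, which is imprecise near 0. Shares need no pseudocount. Counting error is at its largest where a node has few counts, and 3 counts correspond to 0.0609 to 0.125 CPM. In data simulated for last-exon usage in Ag+Costim against Ag, edgeR recovered 8 of 200 last exons changed by a log2 of 1 among 20008, 120 of 200 changed by 2 among 20018 and 170 of 200 changed by 3 among 19967, and it also called 29, 47 and 63 last exons in unchanged genes, so its calls hold more false ones than the adjusted p states. The limma ratio test recovered 0, 106 and 167 there, with 0, 10 and 8 calls in unchanged genes, and limma voom recovered 12, 150 and 174, with 5, 46 and 33. For gene levels, 180 of 200 genes changed by a log2 of 1 were recovered among 18119, with 9 other calls. The study gives 5 samples in each antigen-treated group of this experiment. It mentions mice and individual biological replicates for its first costimulation experiment.

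Named nodes are, in genes of at least 5 CPM, the 10 largest falls and rises in Psi called in the same direction, the 5 largest Psi differences each way, and nodes of T cell signalling genes past 0.1, and, for the 2 factor lists, the 3 largest called changes each way. Nodes named outside this rule, among them Il2ra, Fas, Plcg1, Arhgap15, Foxo3, Wdr33 and Palb2, were chosen with their values known. Results that name certain genes are not reported here. The members, lists and tests were chosen with earlier results of these data known. Python 3.11.15 and matplotlib 3.10.9 were used.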

Additional observations from a re-analysis of the deposited data

Results flagged for a closer look

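Of 46 groups of 5 libraries examined for a value far from the other 4, 5 held one, and chance gives about 1 in 20. Ag replicate 4 had the lowest total of its group, 24000000 gene counts after rounding, with the other 4 at 42630539 or more. Ag+Costim replicate 5 stood above its group at Med14 node 18 (3.36%) and at Phykpl node 14 (37.5%), and Ag+Costim replicate 4 did at Slc38a10 node 13 (2.38%). Ag replicate 2 was the one Ag library with counts on Raph1 node 18 (9.36%).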

How the results depend on the processing

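Calls of alternative last exons in Ag+Costim against Ag (14 lower, 10 higher) became 33 and 29 with limma voom, 29 and 21 with the limma ratio test (chosen after seeing the data) and 8 and 3 with protein-coding transcripts alone, which tests fewer last exons. With last exons merged by acceptor, 9 were lower. Leaving out 1 library gave 10 to 14 lower and 7 to 11 higher. Over all last exons, 1277 calls became 3670, 3432 and 134 under the first 3 settings. For Ag against Naive (8 lower, 5 higher), the counts were 35 and 34, 17 and 16, and 2 and 2 in that order, 3 lower by acceptor, 5 lower with a mean of at least 50 counts and 5 lower with the 2 groups alone, and 4 to 10 lower and 1 to 7 higher without 1 library, where 705 calls over all last exons became 4252, 2294 and 46, 309 without Naive replicate 1 and 173 without Naive replicate 2. Psi differences (42 lower, 23 higher) became 74 and 49 at 0.05, 18 and 5 at 0.2, and 27 lower with 20 CPM. The difference in downstream share (0.617 percentage points) was 0.144 with protein-coding transcripts alone and 0.531 to 0.754 without 1 library. Genes with such an exon called at the gene level ran from 121 to 133 higher and 151 to 161 lower without 1 library. Same-numbered libraries of Ag and Ag+Costim deviated together weakly (correlations 0.016 to 0.095, and 3 of 5 highest with their own number), so the numbers were not taken as pairs. With the replicate block, 5 nodes were lower and 2 higher from Naive to Ag, and over all last exons there were 465 calls there and 1272 in Ag+Costim against Ag. No call of a named node changed direction in any setting tried. Among named nodes that were not called from Naive to Ag, Raph1 node 18 changed sign without Naive replicate 2. Naive replicate 1 had 0 counts on that node, so no fold is given. Phykpl node 14 went from a log2 usage of 0.00 to -0.76 without Naive replicate 2 and to 3.43 without Naive replicate 1. Nipal3 node 13 went from 0.08 to -0.01 without Naive replicate 1. RLE size factors and the unfiltered fit moved no count of nodes by over 1.5 times. In simulated data a change of log2 1 was mostly missed among last exons with a mean of at least 50 counts, and the effect of depth on this was not tested.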
